A study of Bos taurus with 2 samples.

Results

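Imprinted growth genes are described here in the *longissimus thoracis* (LT) muscle of fetal calves. The set holds 10 genes outside the IGF family, of which *PEG3*, *PLAGL1*, *MEST*, *DLK1*, *NNAT*, *SGCE* and *NAP1L5* are known as paternally expressed and *CDKN1C*, *PHLDA2* and *MEG3* as maternally expressed. Their probes were found through the accession listed for each probe, which gave 23 probes for 9 of the 10 genes, among 12603 matched gene symbols and 43653 probes in all. No probe had an accession matched to *PEG3*. The study compared Japanese Black fetuses of dams that received 120% (high-nutrition, HN) or 60% (low-nutrition, LN) of the nutritional requirement from before conception until the fetuses were taken at 8.5 months of gestation (day 260 ± 8.3, an error whose kind is not stated). The dams had been inseminated with sex-sorted semen of the same sire, so that the fetuses of both groups share a father and were expected to be male. The RNA of 4 fetuses was pooled in each group, those with the highest bodyweight in HN and the lowest bodyweight in LN, so diet and the selection by bodyweight cannot be told apart. Each pool was hybridized to 1 array, and there was no replicate, no test and no p-value for any difference between the pools.

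Imprinted genes are transcribed from only the maternal or only the paternal copy, as set by DNA methylation laid down in the germ line. Many of them act on growth before birth, and a widely held view is that paternally expressed genes tend to promote fetal growth and maternally expressed genes to restrain it. In muscle the best known case is the *DLK1*-*MEG3* domain, where a mutation in callipyge sheep leads to postnatal enlargement of the muscles of the back and hindquarters. The arrays measured total transcript and not the parental copy it came from, and imprinting itself was not measured.

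The signal of an array spot is its fluorescence after background correction, given here as log2 after quantile normalization of both arrays. The difference between the pools is given as log2 LN/HN, positive where the signal was higher in the LN pool. Detected probes of a gene were averaged, and the gene is called higher or lower when it differed by more than 1.25-fold (log2 0.32). Detected means that the scanner software placed the probe well above background in 1 or both pools. The median spot signal was 49.1 (HN) and 48.4 (LN), and 42 probes printed in several spots gave an SD of 0.085 for the log2 LN/HN of a single spot. The software's own error was larger, at least 0.20 for the log2 LN/HN of every probe in the set. These errors cover the array only, not the variation between fetuses. The tissue label was checked against 10 skeletal muscle markers, of which 9 had probes and all 9 were well above background in both pools. Their median log2 LN/HN was -0.040, and *MYH8*, a perinatal myosin heavy chain, was called higher (0.35, with 3 probes from 0.041 to 0.61).

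Of the 9 imprinted genes with a value, 2 were called higher in the LN pool (*PHLDA2* and *DLK1*) and 1 lower (*NNAT*), while 6 lay within 1.25-fold. Over all 19554 genes with a value, 8.85% were called higher and 9.11% lower. Only 10637 of these had a matched symbol. Each other accession was counted as a gene of its own, so 1 gene can be counted more than once in these shares and in the ranks. None of the 9 genes passed 2-fold, which 0.711% of all genes did upward and 0.286% downward. The division of all calls depended on scaling, since 49.3% of them were higher as reported, 30.7% with scaling to the arrays' 75th percentiles and 39.3% without normalization. The calls of the 3 imprinted genes were the same under these scalings. After a background correction that damps dim signals (normexp), *NNAT* was no longer called, and 319 of all genes were called higher and 386 lower. The signals of each probe in the 2 pools show that *DLK1* was measured far above background, and *PHLDA2* and 2 of the 3 *NNAT* probes much closer to it.

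**Figure D1:**
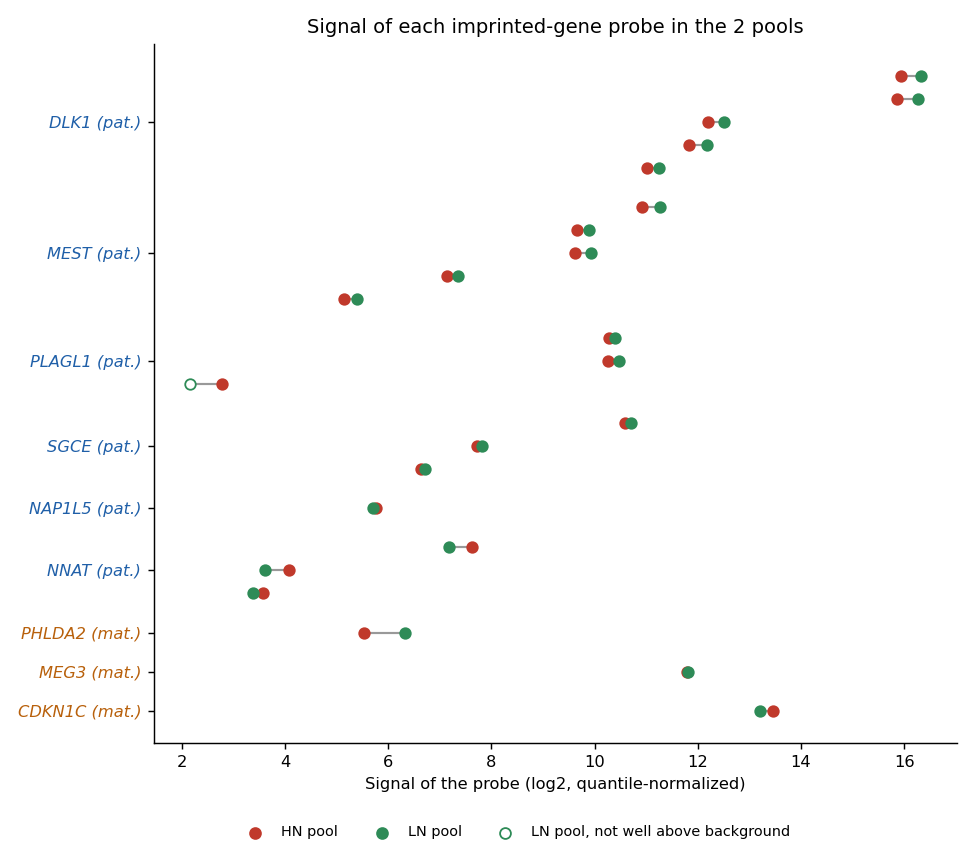
Quantile-normalized log2 signal (x axis) of each of the 23 probes, 1 row a probe, in the HN pool (red) and the LN pool (green), grouped by gene (blue, paternally expressed; orange, maternally expressed). An open point was not well above background. All 5 probes of *DLK1* and all 5 of *MEST* were higher in the LN pool, and all 3 of *NNAT* were lower.

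*DLK1* encodes a membrane protein with EGF-like repeats that restrains the formation of adipocytes and is abundant in fetal muscle. The brightest of its 5 probes read 15.94 (HN) and 16.32 (LN) in log2 signal, which gives a log2 LN/HN of 0.38. The next brightest read 15.85 (HN) and 16.27 (LN), a log2 LN/HN of 0.42. The other 3 probes were less bright and gave 0.31, 0.36 and 0.25. All 5 probes were thus higher in the LN pool, although their signals spread over a range of about 5 log2 units. Their mean was 0.34 ± 0.067 (SD over 5 probes), a fold of 1.27 (rank 1586 from the highest of 19554 genes). Between 0.32 and 0.38 under all 12 other processing settings, it was called higher in each of them. The filters, dim values as measured and kept outlier spots could not move it, since all 5 probes were detected in both pools. The call was close to the threshold (log2 0.3219), with values of 0.3226 after the normexp background correction and 0.3229 with scaling to the 75th percentile. Leaving out any 1 probe moved the mean between 0.32 and 0.37.

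*MEG3*, the maternally expressed long noncoding RNA that lies next to *DLK1* in the gene table, differed little. The log2 signal of its 1 probe was 11.78 (HN) and 11.82 (LN). The log2 LN/HN was 0.035 with a software error of 0.20, smaller than the spread of a single spot. A further paternally expressed gene of the domain is *RTL1*, a retrotransposon-derived gene whose overexpression in callipyge muscle is well known. Of its 2 probes 1 was detected, at 3.94 (HN) and 4.65 (LN) in log2 signal, a log2 LN/HN of 0.72. That signal was dim, and after the normexp background correction, which damps dim signals, the log2 LN/HN of *RTL1* was 0.11. *DIO3*, also of this domain, was not well above background on either array, and *BEGAIN* had no matched probe. Within the domain, both paternally expressed genes with a value (*DLK1* and *RTL1*) were therefore called higher, *RTL1* not after normexp, and the maternally expressed gene was not, in a single pair of arrays.

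*MEST* encodes an endoplasmic reticulum protein of the alpha/beta hydrolase fold that is linked to growth and to the enlargement of fat cells. In log2 signal the brightest of its 5 probes read 10.92 (HN) and 11.26 (LN), a log2 LN/HN of 0.34. The dimmest read 5.14 (HN) and 5.40 (LN), a log2 LN/HN of 0.26. The other 3 gave 0.23, 0.32 and 0.21. The mean of 0.27 ± 0.056 (SD over 5 probes, 1.21-fold) was not called, but all 5 probes pointed the same way. It was called higher in 1 of the 12 other settings, the one that takes the brightest probe. The probe values of *MEST* (0.21 to 0.34) overlapped those of *DLK1* (0.25 to 0.42), so the order of these genes is not larger than the spread between probes.

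*PLAGL1*, a zinc finger transcription factor that regulates other imprinted genes, was measured by 2 similar probes and a dim one. The log2 signal of the first was 10.27 (HN) and 10.40 (LN), and that of the second 10.26 (HN) and 10.48 (LN). These gave log2 LN/HN values of 0.13 and 0.22, and a gene value of 0.17 (1.13-fold). The third was well above background in the HN pool only (log2 signal 2.77) and read 2.17 in the LN pool. Its HN signal did not exceed the lowest signal marked as detected in LN (2.82), so no fold was given. With its value used as measured (-0.61), the gene value changed sign to -0.087. Under scaling to the 75th percentile, cyclic loess and no normalization the dim probe obtained a fold, and the gene value was 0.063, 0.051 and 0.098. With only the other 2 probes it was 0.19, 0.18 and 0.23 under these settings.

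*SGCE* encodes epsilon-sarcoglycan, a membrane protein related to the sarcoglycans of the dystrophin complex. Its 3 probes gave log2 LN/HN values of 0.11, 0.097 and 0.073, with a mean of 0.094 ± 0.020 (SD over 3 probes). The brightest had log2 signals of 10.59 (HN) and 10.70 (LN). The probes were close to each other, but the difference of 1.07-fold was about that of a single spot's SD. Its neighbour *PEG10*, a paternally expressed gene of retrotransposon origin that starts beside it, had 2 measured probes at 0.20 and 0.49 and a value of 0.35, which was called higher but not with scaling to the 75th percentile or after normexp (0.32 and 0.30). *NAP1L5*, a small member of the nucleosome assembly protein family, had log2 signals of 5.77 (HN) and 5.71 (LN) on its 1 probe, a log2 LN/HN of -0.064 with a software error of 0.21. With normexp the value was 0.0071, on the other side of 0.

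*NNAT*, or neuronatin, is a small membrane proteolipid that resembles phospholamban and is thought to act on the calcium pump of the endoplasmic reticulum. It was the only paternally expressed gene of the set called lower in the LN pool. The log2 signal of its brightest probe was 7.63 (HN) and 7.18 (LN), so log2 LN/HN was -0.45. The probe of the other listed transcript read 4.08 (HN) and 3.60 (LN), a log2 LN/HN of -0.48, and the dimmest read 3.58 (HN) and 3.38 (LN), a log2 LN/HN of -0.20. The LN signal was the lower one in all 3. The mean was -0.38 ± 0.15 (SD over 3 probes), so that the HN signal was 1.30-fold that of LN (rank 1312 from the lowest of 19554 genes). It lay between -0.50 and -0.42 under the other scalings and in the authors' normalized values, but at -0.18 after the normexp background correction, where it was no longer called. The 4 other genes set beside it, those of the calcium pump and its small regulators, were all lower within 1.25-fold, with a median of -0.17 (*ATP2A1* -0.20, *ATP2A2* -0.17, *PLN* -0.17 and *SLN* -0.13).

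**Figure D2:**
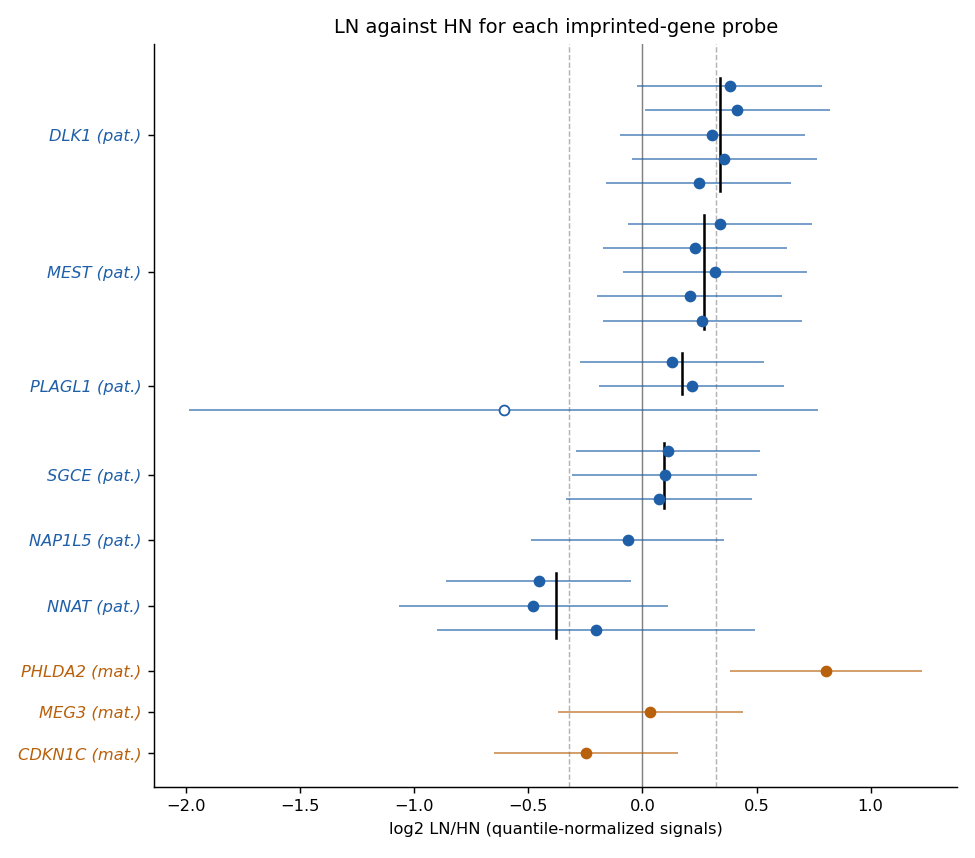
log2 LN/HN (x axis) of each of the 23 probes as measured, with the 95% interval from the scanner software's error (horizontal line), and the mean of the probes counted for a gene (black bar). Dashed lines mark 1.25-fold, and the open point is the *PLAGL1* probe without a fold. The interval lay on 1 side of 0 for 3 probes, 1 each of *PHLDA2*, *DLK1* and *NNAT*.

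Among the maternally expressed genes, *PHLDA2* differed most. It encodes a pleckstrin homology domain protein that restrains growth of the placenta. On the log2 scale its 1 probe read 5.53 (HN) and 6.33 (LN), a log2 LN/HN of 0.80 with a 95% interval of 0.39 to 1.22 from the software's error. This 1.75-fold difference ranked 290 from the highest of 19554 genes. It stayed between 0.75 and 0.84 under the other scalings and in the authors' normalized values, and was 0.36 after the normexp background correction. It was called higher in all 12 other settings, but not all of them could change it. Its 1 probe was detected in both pools and had no outlier spot. The filters, dim values as measured, the choice of probe and kept outlier spots therefore left its value as it was. There was no second probe to set beside it. Of 4 placental genes, 3 had matched probes. *PRP1* was measured in both pools (log2 signal 4.88 in HN and 4.74 in LN), *CSH2* gave no fold, and *TKDP1* was not detected in either pool.

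*CDKN1C* encodes a cyclin-dependent kinase inhibitor of the Cip/Kip family that stops the cell cycle and is needed for muscle differentiation. Its 1 probe was bright, at log2 signals of 13.45 (HN) and 13.21 (LN). The log2 LN/HN was -0.25 with a software error of 0.20, and it was not called. It remained between -0.26 and -0.19 under the other settings, always below 0. *CDKN1C* lies close to *PHLDA2* in the gene table, with *SLC22A18* between them. The values of these maternally expressed neighbours had opposite signs, but only that of *PHLDA2* was called. Of the other genes near them, *NAP1L4* was at -0.032 and *CARS1*, a cysteinyl-tRNA synthetase, at 0.35 (called higher, but 0.30 with scaling to the 75th percentile and 0.15 after normexp), and *SLC22A18* had no matched probe. The 8 cyclins and cyclin-dependent kinases set beside *CDKN1C* all lay within 1.25-fold, 4 higher and 4 lower, with a median of 0.0026.

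The spread of log2 LN/HN over the probes of an array pair widens toward dim signals, and the imprinted-gene probes were therefore set beside all 30639 probes detected in both pools, in ranges of like signal. Among 1010 probes with a mean log2 signal of 14 or more, the 5th and 95th percentiles were -0.24 and 0.19, and both bright *DLK1* probes were above this range. Among 7059 probes with a log2 signal of 4 to 6, the range was -0.50 to 0.51, and the *PHLDA2* probe was above it. The brightest *NNAT* probe was below the range of the 6893 probes at 6 to 8 (-0.38 to 0.36), whereas its dim probes were inside the range of the 3201 probes at 2 to 4 (-0.58 to 0.77). Of the 22 probes measured in both pools, 7 lay above the 95th percentile of their signal range, 1 below the 5th and 14 inside. The 7 were 4 of *DLK1*, 2 of *MEST* and that of *PHLDA2*. *CDKN1C* was inside, just above the 5th percentile (-0.27). Probes of 1 gene share their transcript and are not independent, so these numbers describe the arrays.

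**Figure D3:**
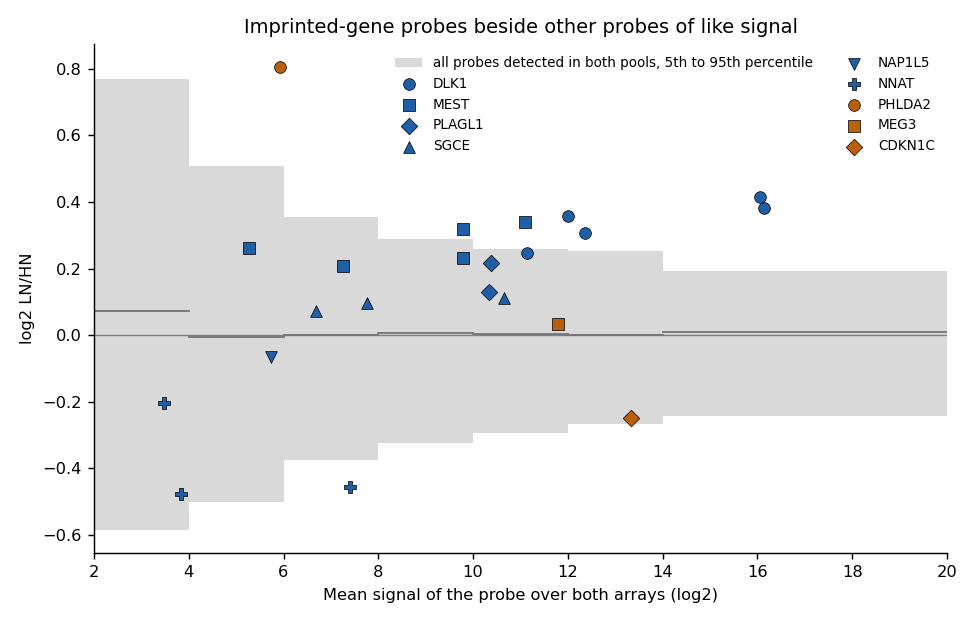
log2 LN/HN (y axis) against the mean log2 signal of a probe over both arrays (x axis) for the 22 imprinted-gene probes measured in both pools. The grey band is the 5th to 95th percentile and the grey line the median of all probes detected in both pools, in 7 signal ranges. The band narrows from -0.58 to 0.77 at the dim end to -0.24 to 0.19 at the bright end, where the *DLK1* probes lie above it.

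Paternally expressed genes were then set against maternally expressed genes. Of the 6 paternally expressed genes with a value, 4 were higher and 2 lower in the LN pool, with a median log2 LN/HN of 0.13. Of the 3 maternally expressed genes, 2 were higher and 1 lower, with a median of 0.035. Over all 19554 genes, 9636 were higher and 9906 lower, with a median of -0.0033. The values of the paternally expressed genes (-0.38 to 0.34) lay within those of the maternally expressed genes but for *NNAT* (-0.25 to 0.80 for the latter), so the groups overlapped. The maternal median rests on 3 single probes and moved to 0.42 without *CDKN1C* and to -0.11 without *PHLDA2*. The paternal median was 0.015 when the dim *PLAGL1* probe was counted as measured. The paternal and maternal medians were 0.073 and 0.046 with scaling to the 75th percentile, 0.076 and 0.043 with cyclic loess, and 0.11 and 0.081 without normalization, all with the dim *PLAGL1* probe counted. With only probes detected in both pools, the paternal medians of these 3 settings were 0.14, 0.14 and 0.17, and the maternal medians did not move. From the highest, the order was *PHLDA2*, *DLK1*, *MEST*, *PLAGL1*, *SGCE*, *MEG3*, *NAP1L5*, *CDKN1C* and *NNAT*. Only the step from *PHLDA2* to *DLK1* was larger than the software error of a probe, and after normexp these genes were at 0.36 and 0.32, a smaller step, while *CDKN1C* (-0.19) and *NNAT* (-0.18) changed places.

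Other genes known to be imprinted in at least 1 mammal were taken from a list. Of 16 paternally expressed genes, 8 had matched probes and 7 a value. Of these, 5 were higher and 2 lower, 2 of them called higher (*RTL1* and *PEG10*) and none called lower, with a median log2 LN/HN of 0.19. After normexp neither *RTL1* (0.11) nor *PEG10* (0.30) was called. *IMPACT*, an inhibitor of the kinase GCN2, had 4 probes from 0.083 to 0.34 and a value of 0.19. *NDN*, or necdin, which promotes muscle differentiation, was at 0.085, *SNRPN* at -0.0040 and *SNURF* at -0.064. Of 16 maternally expressed genes, 11 had matched probes and 9 a value, 6 higher and 3 lower, all within 1.25-fold (-0.091 to 0.17, median 0.11). Those 9 include *GRB10*, an adaptor that restrains insulin and IGF signaling, whose probes went both ways (-0.13 and 0.40, mean 0.13). *UBE3A*, a ubiquitin ligase, was at 0.069 over 5 probes. Many of these genes are imprinted in other species, isoforms or tissues, and their status in calf muscle was not measured.

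**Figure D4:**
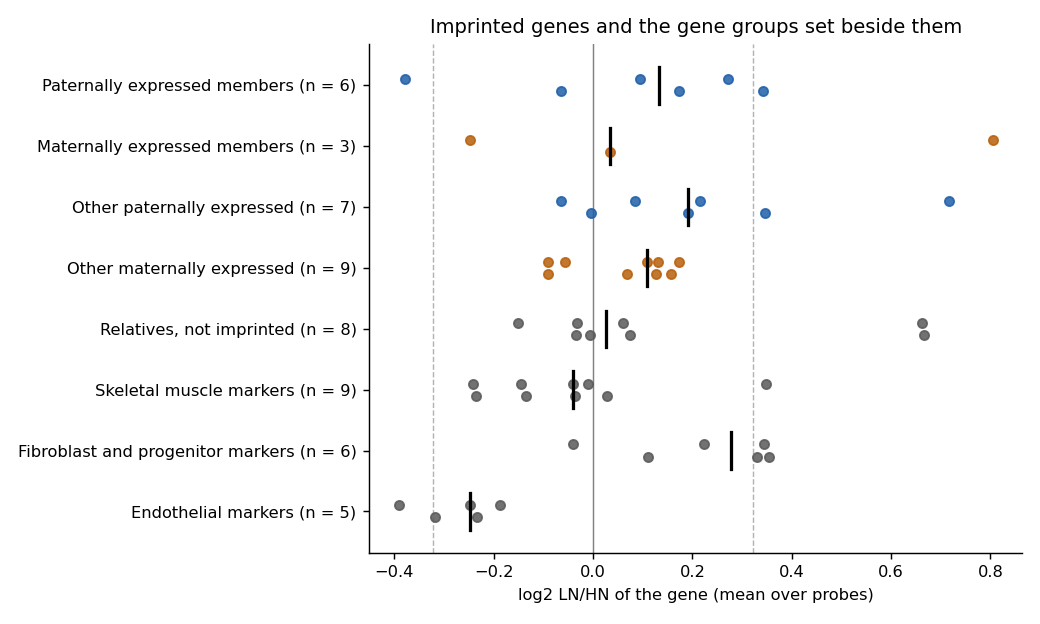
log2 LN/HN (x axis) of single genes (points) with the median of the group (black bar), for the imprinted genes of the set, other imprinted genes, relatives that are not imprinted and markers of 3 cell types. Dashed lines mark 1.25-fold. The paternally expressed genes (median 0.13) and the maternally expressed genes (0.035) overlapped, the fibroblast and progenitor markers lay mostly above 0 (median 0.28) and the endothelial markers all below it (-0.25).

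Markers of other cell types differed between the pools as well, and because the muscle was taken whole, fewer cells of a type and less RNA per cell cannot be told apart. *DLK1* and *MEST* are known to be expressed in fibro-adipogenic progenitors as well as in myogenic cells. Of 6 markers of fibroblasts and such progenitors, 5 were higher in the LN pool and 3 were called (*LUM* 0.35, *COL1A1* 0.34 and *COL3A1* 0.33), while *PDGFRA* was at 0.22, *DCN* at 0.11 and *THY1*, the lower one, at -0.040. Of these calls, that of *LUM* was lost after normexp (0.25) and that of *COL3A1* with scaling to the 75th percentile (0.31). The median of the 6 markers was 0.28, close to the values of *MEST* and *DLK1*, and their summed signal was 286491 (HN) and 357598 (LN). Such sums add every probe of the listed markers, so bright genes and genes with many probes weigh most. Of 5 endothelial markers, all were lower, 1 of them called (*CLDN5* -0.39), with a median of -0.25 and summed signals of 32929 and 25409. For satellite cells, *MYF5* was at 0.20 and *CDH15* at -0.17 (summed signals 16511 and 13952), and *PAX7* and *SDC4* had no matched probe. These sums came mostly from *CDH15*, the far brighter gene, and the markers went opposite ways. For adipocytes, *FABP4* was called higher (0.39), *CIDEC* was at 0.22 and *PLIN1* at -0.14, with summed signals of 474 and 579, while *LEP* was not detected and *ADIPOQ* had no matched probe. The erythroid markers with a value (5 of 6, median -0.16) and those of nerve and glia (4 of 5, median 0.067) held no called gene. The part of these cell types in the values of the imprinted genes was not tested.

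Relatives of the imprinted genes that are not imprinted are known for several families. Of 15 relatives, 8 had a value, 4 higher and 4 lower, with a median of 0.027. Besides *CDKN1C*, the Cip/Kip family holds *CDKN1A*, a target of p53, which was called higher (0.66, with probes at 0.30 and 1.02), and *CDKN1B*, which was at -0.035. The 3 inhibitors of this family thus had values of -0.25, 0.66 and -0.035. *DLK2*, the relative of *DLK1*, was called higher (0.67), but its 2 probes disagreed (-0.11 and 1.44). Among sarcoglycans, *SGCA* was at -0.15, *SGCD* at -0.0068 and *SGCB* at 0.075, against 0.094 for *SGCE*. *NAP1L1* (0.060) and *NAP1L4* (-0.032) were within 1.25-fold as was *NAP1L5*, and *PHLDA1* was not detected.

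*DLK1* is held to act on Notch signaling, a pathway that keeps satellite cells from differentiating. Of 9 Notch pathway genes, 5 had a value, 4 of them lower. *HES1*, a transcriptional repressor induced by Notch, was called lower (log2 LN/HN -0.42), with log2 signals of 9.97 (HN) and 9.55 (LN). *HEY1* was at -0.26, *NUMB* at -0.11 and *HEYL* at -0.024. *JAG1* was at 0.21, with probes at -0.32 and 0.75, but at -0.075 after normexp. The *NOTCH* receptors of the list had no matched probe. For *PEG3*, which itself had no matched probe, the partners *SIAH1* (0.050) and *BAX* (-0.19) lay within 1.25-fold.

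**Figure D5:**
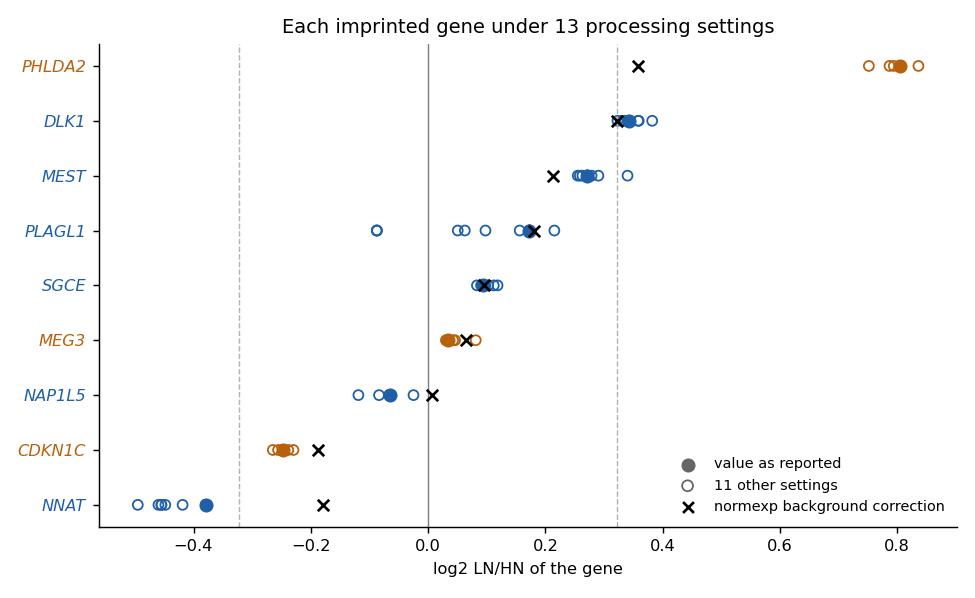
log2 LN/HN (x axis) of each of the 9 imprinted genes as reported (filled), under 11 other settings (open) and after the normexp background correction (cross), with genes from highest to lowest. Dashed lines mark 1.25-fold. *DLK1* stayed between 0.32 and 0.38, whereas *PHLDA2* (0.80) and *NNAT* (-0.38), which are dimmer, were at 0.36 and -0.18 after the normexp correction.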

How the data were processed

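The authors pooled the total RNA of 4 fetuses per group and hybridized each pool to 1 one-color (Cy3) Agilent Bovine (v2) array. They deposited the spot intensities and software errors of Agilent Feature Extraction 11.0.1.1, which are corrected for background within the array and not normalized between arrays. The authors also deposited log2 values for 30027 of the 43653 probes, which their methods describe as quantile-normalized in GeneSpring GX. Here, log2 intensities of the 43803 non-control spots were quantile-normalized with limma 3.58.1 in R 4.3.3, 13 outlier spots were removed (none of an imprinted gene), and repeated spots took their mean. Detection required the software's mark of well above background in 1 or both pools. For a probe dim in a single pool, that side was set to the higher of its own value and the lowest detected signal (log2 2.27 on HN, 2.82 on LN), and no fold was given if the bright side did not exceed it. Of the probes, 26742 matched a symbol through the gene table of ARS-UCD2.0, which was used for names and neighbours only because the array was designed on another assembly. The number of arrays limits the precision. The 12 alternatives were cyclic loess, no normalization, scaling to the 75th percentile, normexp (offset 50, on median spot and background signals, since mean spot signals were not in the columns used), the authors' values, 3 filters, dim values as measured, the median or the brightest probe of a gene, and outlier spots kept. After seeing the data, members and probes were also left out in turn, and the scalings were repeated on probes detected in both pools.

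Python 3.11.15, numpy 2.4.6 and pandas 2.3.3 were used for tables and matplotlib 3.10.9 for figures. The probe and gene steps were tested on simulated data with changes placed in brighter genes only. Every probe was marked as detected there, so the rules for dim probes were not tested, nor was the limma normalization. All imprinted genes of the set are named, and genes of the other lists where they were called or are set beside one of them. The lists were of other imprinted genes, relatives, neighbours in the gene table, partners of *DLK1*, *CDKN1C*, *PEG3* and *NNAT*, and markers of 8 cell types or tissues. A gene of the list of relatives is not reported here. The members and lists were chosen with earlier results of these data known.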

Additional observations from a re-analysis of the deposited data

How the results depend on the processing

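Each group has 1 array, so no replicate could be left out. No paired analysis was possible because each group has 1 array. The imprinted genes called higher (2) were called higher under all 12 alternatives, and *MEST* was called in 1. The filters, dim values as measured and kept outlier spots could not change these 2 calls, nor the choice of probe that of *PHLDA2*. After normexp *DLK1* was barely past the threshold (0.3226 against 0.3219). No imprinted gene was called lower (0, against 1) after the normexp background correction. The median of the paternally expressed genes was 0.015 without a filter on dim probes, with dim values as measured, and with probes that only had to be positive and significant. That of the maternally expressed genes, with a member left out in turn (chosen after seeing the data), was 0.42 without *CDKN1C*, -0.11 without *PHLDA2* and 0.28 without *MEG3*. *PLAGL1* (-0.087 with its dim probe as measured) and *NAP1L5* (0.0071 after normexp) changed sign, and neither was called. Of all genes, 2693 were past 1.25-fold lower with the 75th percentile subtracted, where 80 were past 2-fold higher and 93 lower. Past 2-fold higher were 91 genes without normalization, 92 in the authors' values and 81 with probes detected on both arrays. After normexp, 319 and 386 genes were past 1.25-fold higher and lower and 9 and 4 past 2-fold, against 3121, 3785, 665 and 655 with probes positive and significant, and 3251, 3592, 595 and 595 without a filter. With dim values as measured, 263 were past 2-fold lower. The causes were not tested.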

Other observations

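The gene table gives 33 protein-coding genes among the 2 nearest on each side of the imprinted genes, and 22 of them had a value, 12 higher and 10 lower in the LN pool with a median log2 LN/HN of 0.037. Of these, 5 were called higher and none lower, but scaling to the 75th percentile ended the calls of *CARS1* (0.30), *PEG10* (0.32) and *HERC3* (0.24), and normexp all but that of *COL1A2* (0.34). *COL1A2*, a fibrillar collagen chain near *SGCE*, had 6 probes from 0.29 to 0.47 and a value of 0.42. *HERC3*, a ubiquitin ligase gene whose start is the next one before that of *NAP1L5* in the gene table, was at 0.33, but its 4 probes ranged from 0.069 to 0.89. *CARS1*, *PEG10* and *RTL1* were the others. *COPG2*, which lies beside *MEST*, was at 0.13, with its 2 probes at 0.043 and 0.21. *BLCAP*, whose locus holds *NNAT* in mammals, was at -0.10, and the next genes *CTNNBL1* and *VSTM2L* were at -0.17 and -0.26. No hypothesis was tested on these values.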
